A study of Mus musculus with 24 samples.

Results

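Lung memory B cells that carry the surface proteins CCR6 and CD69 were compared with lung memory B cells that carry neither, both sorted from wild-type mice. The comparison uses 8 of the 24 libraries of the study: 4 of WT lung CCR6+CD69+ cells and 4 of WT lung CCR6-CD69- cells, chosen by their sample titles. All mice were given house dust mite extract intranasally and met the same allergen again at week 6, and every group carried the hCD20-TamCre transgene, named for CD20, a B cell surface protein. Mice called WT here have the genotype SCAP +/+ hCD20-TamCre, so their Cre had no floxed Scap to cut; 2 further lung groups, SCAP cKO CCR6+CD69+ and SCAP cKO CCR6-CD69-, have SCAP fl/fl hCD20-TamCre, with SCAP deleted ahead of the recall. The sorted cells carry the label csMBC, RNA was polyA-selected, and each of the 6 groups has 4 libraries, 2 from each of 2 labelled batches. The labels do not say whether replicates came from separate mice or from pools, nor how the WT mice were treated to match the deletion, so a p-value here speaks of the spread among these libraries alone.

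Memory B cells that stay in a tissue after an airway infection or allergen exposure can answer the next exposure locally, without first returning through blood and lymph nodes. CD69 holds lymphocytes in tissue by pulling the sphingosine-1-phosphate receptor S1PR1 off the cell surface, and CCR6 is the receptor for the epithelial chemokine CCL20. On recall, memory B cells can become antibody-secreting plasma cells, which need a large endoplasmic reticulum and its chaperones.

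The CCR6+CD69+ libraries held 8566243, 5412034, 3436877 and 2765735 counts, against 3378171, 680077, 1577324 and 2387002 in the CCR6-CD69- libraries. Total counts averaged 5045220 ± 2602240 in CCR6+CD69+ and 2005640 ± 1150340 in CCR6-CD69- libraries (SD, n = 4 each; two-sided exact permutation p = 0.0571, 0.114 after adjustment over 4 library measures, smallest p possible 0.0286). A limit of 3 counts corresponded to between 0.350 and 1.08 CPM (counts scaled to 1000000 per library) in CCR6+CD69+ and between 0.888 and 4.41 CPM in CCR6-CD69- libraries, for counting error only. Correlations of log2 CPM across genes ran from 0.822 to 0.909 among CCR6+CD69+ replicates, from 0.685 to 0.871 among CCR6-CD69- replicates and from 0.695 to 0.863 between the groups. B cell genes were present throughout: Pax5, the B lineage transcription factor, averaged 1010.3 ± 528 CPM across CCR6+CD69+ libraries and 994 ± 416 CPM across CCR6-CD69- libraries (SD, n = 4 each). Transcripts of the sorting marker Cd69 stood at 643, 995, 1033 and 1087 CPM in CCR6+CD69+ cells, against 893, 603, 829 and 823 CPM in CCR6-CD69- cells, which overlap (log2 fold change 0.24 ± 0.55, adjusted p = 1.00). Ccr6 is not analysed here. Scap, which was intact in all 8 libraries, had 64.6, 77.3, 120.2 and 61.9 CPM in CCR6+CD69+ libraries, against 195, 102, 139 and 129 CPM in CCR6-CD69- libraries (log2 fold change -0.78 ± 0.93, adjusted p = 1.00).

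In the edgeR fit of all 24 libraries, 20 genes passed an adjusted p of 0.05 and all 20 were lower in CCR6+CD69+ cells, that is 0.295% of 6779 genes tested. For the 18 of them named below, log2 fold changes (CCR6+CD69+ over CCR6-CD69-, given with standard errors throughout) lay between -6.48 and -2.74, while the median over all genes tested was -0.02. For 19 of the 20, every CCR6+CD69+ library was below every CCR6-CD69- library; such a separation was met by 3.61% of the genes tested in the lower direction and by 2.58% in the higher. No gene passed in the higher direction in this fit. At an unadjusted p under 0.05 there were 226 genes, 41 of them higher, fewer than the share of 0.05 that chance alone gives. Limma voom called 26 genes higher and 129 lower on the same libraries, while with DESeq2 the split was 3 higher against 51 lower. A fit of the 8 WT lung libraries alone, which has its own and smaller spread (biological coefficient of variation 0.615, against 1.10 over the 24 libraries), called 81 genes, 1.28% of 6307 tested: 9 higher (0.143%) and 72 lower (1.14%). The fits shared 18 called genes; of the others, Jchain had an adjusted p of 0.207 in the smaller fit and Clec10a was below its filter.

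The number of genes called depended on single libraries. In the 24-library fit 0, 6, 4 and 1 genes passed without CCR6+CD69+ replicate 1, 2, 3 and 4 in turn. Without CCR6-CD69- replicate 1, 2, 3 and 4 the counts were 9, 20, 9 and 16. Without CCR6+CD69+ replicate 1, the deepest library, 228 of 6991 genes had an unadjusted p under 0.05, again below a share of 0.05. The 8-library fit gave 36, 50, 62 and 56 genes without each CCR6+CD69+ replicate and 144, 141, 44 and 54 without each CCR6-CD69- replicate. Of its 81 genes 29 passed in all 8 of these fits, 2 of them higher and 27 lower, and all 81 kept their direction. Within batch 1 alone 6 genes passed and within batch 2 alone 2, all lower. Of the 18 named genes called over 24 libraries none passed in all 8 of the larger fits: Jchain was kept in 7 and Pltp in 0, and the highest adjusted p of the genes other than Jchain lay between 0.126 and 0.399. The 8-library fit also called 16 of the 18, of which 9 passed in all 8 of the smaller fits and 7 did not (Ccl4, Fmnl2, Lifr, Ptprf, Serinc5, Tifa and Tyrobp). A leave-one-out range below is the range of a gene's adjusted p over the 8 smaller fits, unless the larger fit is named.

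**Figure D1:**
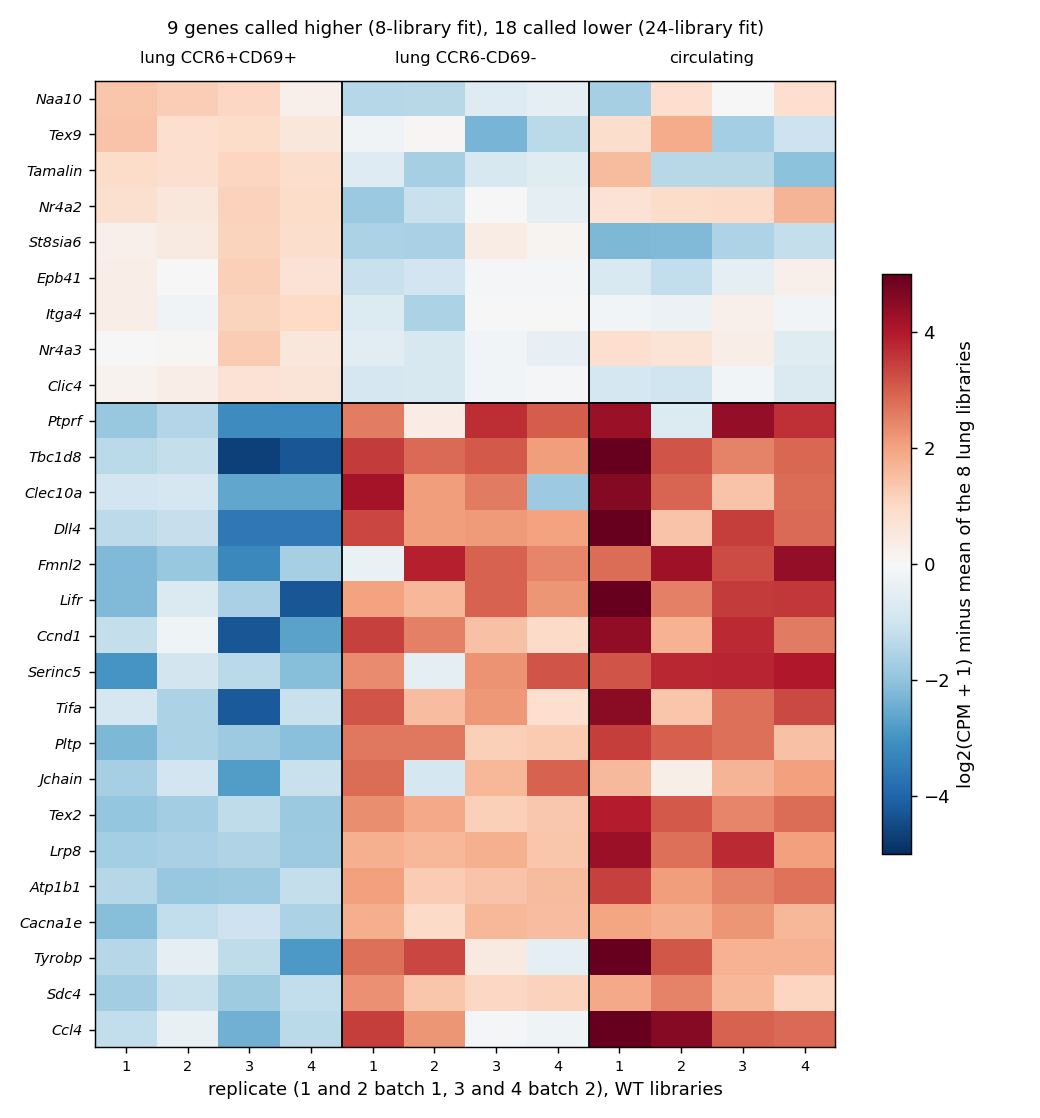
Colour map of log2(CPM + 1) minus the mean of the 8 WT lung libraries, for the 9 genes called higher in the 8-library fit (top) and 18 of those called lower in the 24-library fit (bottom), with 1 column per WT library; colours stop at -5 and 5. The lower genes are pale to dark blue in the 4 CCR6+CD69+ columns, and in 17 of the 18 the circulating mean is above the CCR6-CD69- mean.

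The 9 genes that rose in CCR6+CD69+ cells in the 8-library fit included a pair of orphan nuclear receptors, Nr4a2 and Nr4a3, which antigen receptor signalling induces within hours as immediate-early genes. Nr4a2 was at 642, 538, 809.6 and 696 CPM in CCR6+CD69+ libraries, against 98.9, 167, 369 and 259.6 CPM in CCR6-CD69- libraries. Every CCR6+CD69+ library was above every CCR6-CD69- library (log2 fold change 1.70 ± 0.27, adjusted p = 0.00334, leave-one-out range 0.00179 to 0.0216). Tamalin, a scaffold protein of receptor trafficking, had 620.3, 581, 684 and 590.0 CPM across CCR6+CD69+ libraries and 205, 103, 187 and 212 CPM across CCR6-CD69- libraries. Its groups stood far apart (log2 fold change 1.81 ± 0.24, adjusted p = 0.00106, leave-one-out range 0.000209 to 0.00971). Nr4a3 was at 856, 888, 2082 and 1278 CPM in CCR6+CD69+ cells, against 584, 488, 769 and 638 CPM in CCR6-CD69- cells, again without overlap (log2 fold change 0.98 ± 0.22, adjusted p = 0.0481, leave-one-out range 0.0134 to 0.204). None of these passed in the 24-library fit, where Nr4a2 had a log2 fold change of 1.61 ± 0.64 and an adjusted p of 0.842.

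The other 6 risers were spread over unlike functions. Itga4, the alpha-4 integrin chain that binds VCAM-1 and fibronectin, was at 2939.6, 2057, 4998 and 4601 CPM in CCR6+CD69+ libraries, against 1461, 775, 2299.5 and 2335 CPM in CCR6-CD69- libraries. Its groups overlapped when the batches were pooled, because replicate 2 of CCR6+CD69+ was below replicates 3 and 4 of CCR6-CD69-, but were apart within each batch (log2 fold change 1.10 ± 0.23, adjusted p = 0.0242, leave-one-out range 0.00434 to 0.136). Clic4, an intracellular chloride channel protein, averaged 1078 ± 189 CPM across CCR6+CD69+ libraries and 568 ± 159 CPM across CCR6-CD69- libraries (leave-one-out range 0.0173 to 0.112). Epb41, a protein of the membrane skeleton, averaged 385 ± 138 and 180.5 ± 69.3 CPM in the same order (leave-one-out range 0.0155 to 0.13). St8sia6, a sialyltransferase, averaged 324 ± 87.0 CPM in CCR6+CD69+ cells, against 150.4 ± 101 CPM in CCR6-CD69- cells (leave-one-out range 0.0374 to 0.0941). Naa10, the catalytic subunit of an N-terminal acetyltransferase, averaged 94.6 ± 28.3 CPM in CCR6+CD69+ libraries, against 23.6 ± 8.23 CPM in CCR6-CD69- libraries (leave-one-out range 0.0409 to 0.214). Tex9 averaged 191 ± 48.7 CPM across CCR6+CD69+ libraries and 61.1 ± 39.2 CPM across CCR6-CD69- libraries (SD, n = 4 each, leave-one-out range 0.00564 to 0.115).

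The promoters of the nuclear receptor pair are shown because both genes rose together. Each line gives the 250 bases before the RefSeq start (build GRCm38.p6), 5′ to 3′ on the gene's strand, with every TGACG, a partial site of the cAMP response element, in capitals on either strand (CGTCA where it reads from the other strand). Nr4a2 is at chr2:57124004-57124253 on the minus strand and Nr4a3 at chr4:48045055-48045304 on the plus strand.
Nr4a2: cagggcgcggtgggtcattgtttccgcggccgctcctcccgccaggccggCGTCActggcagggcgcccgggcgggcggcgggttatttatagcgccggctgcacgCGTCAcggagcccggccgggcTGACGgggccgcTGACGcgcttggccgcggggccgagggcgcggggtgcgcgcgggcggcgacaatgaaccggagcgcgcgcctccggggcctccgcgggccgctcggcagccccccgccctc
Nr4a3: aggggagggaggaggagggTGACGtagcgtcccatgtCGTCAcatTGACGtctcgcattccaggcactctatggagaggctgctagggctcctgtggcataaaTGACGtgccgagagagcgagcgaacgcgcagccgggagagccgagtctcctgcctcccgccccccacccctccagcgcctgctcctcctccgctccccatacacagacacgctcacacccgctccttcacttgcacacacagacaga
Each window holds 4 matches, beginning 200, 144, 123 and 111 bases before the start in Nr4a2 and 231, 213, 205 and 147 bases before it in Nr4a3. Of 32851 promoter windows of this length, 17.8% hold at least 1 such match and 0.137% hold 4 or more. The cutoff of 4 is the number that both genes hold, and the windows were not matched for base composition. Whether the matches bear on the rise was not tested. The match is of letters only, and no binding was measured here.

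Of 13 tested genes of B cell receptor signalling and early response, the 8-library fit called Nr4a2 and Nr4a3 higher and Jun lower, while the 24-library fit called none (list median log2 fold change 0.13). Over all genes tested the 8-library fit called 0.143% higher and 1.14% lower. Jun, a subunit of the AP-1 transcription factor, was at 401, 407, 604 and 664 CPM in CCR6+CD69+ cells, against 1179.8, 954, 1052 and 1268 CPM in CCR6-CD69- cells, the opposite order to the nuclear receptors (log2 fold change -1.14 ± 0.20, adjusted p = 0.00953, leave-one-out range 0.00483 to 0.0574). Egr2, a zinc finger factor of the same immediate-early response, had 621, 791, 890.3 and 1051 CPM in CCR6+CD69+ libraries, against 288, 690.3, 408 and 300.0 CPM in CCR6-CD69- libraries. Only CCR6-CD69- replicate 2 reached into the CCR6+CD69+ range (log2 fold change 0.99 ± 0.29 in the 8-library fit, adjusted p = 0.134).

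**Figure D2:**
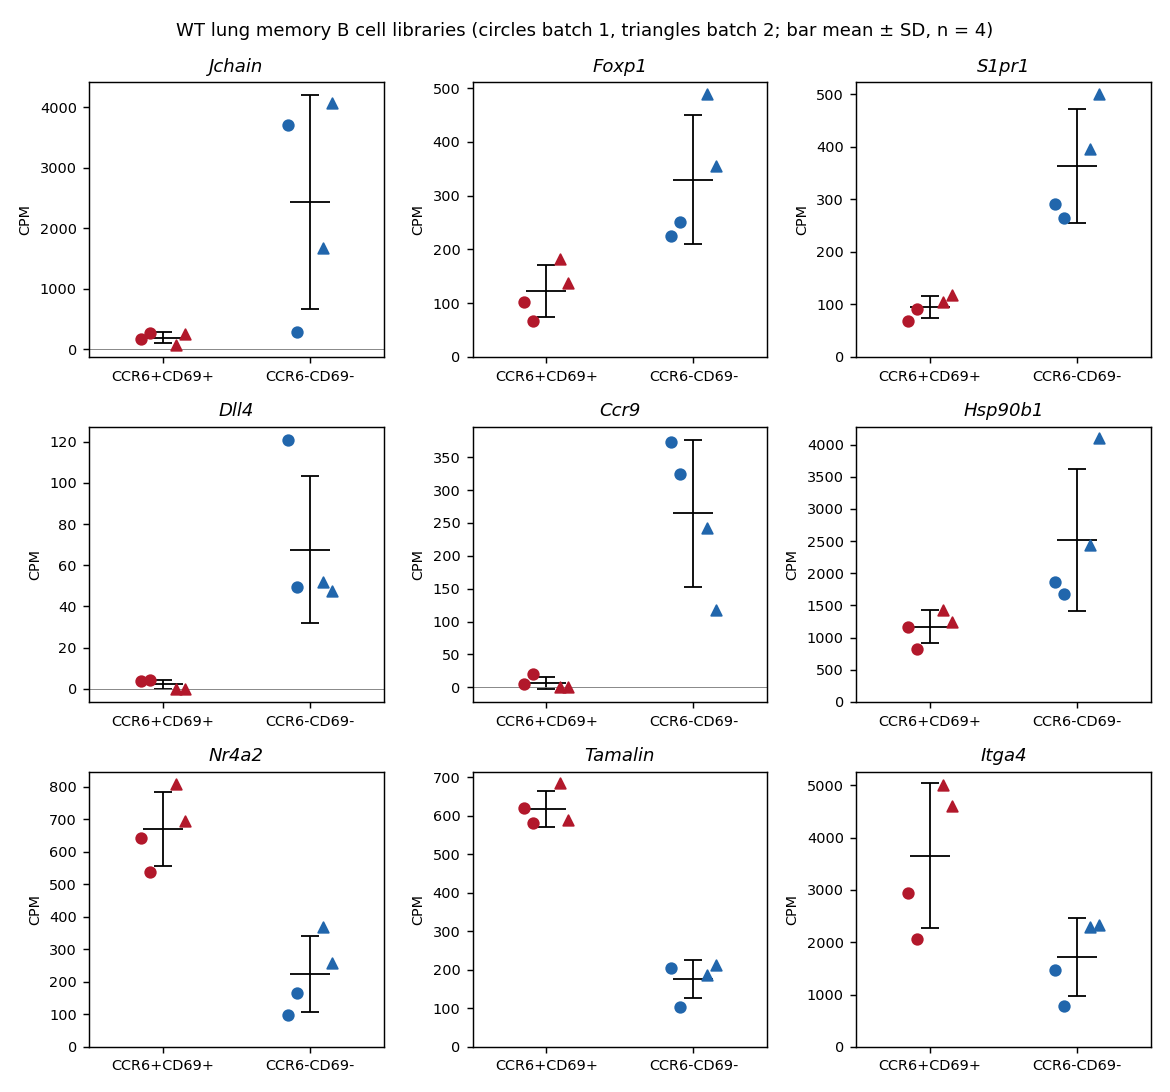
CPM of 9 genes in the 4 CCR6+CD69+ (red, left) and 4 CCR6-CD69- (blue, right) WT lung libraries, with circles for batch 1, triangles for batch 2 and bars for the mean ± SD. Jchain, Foxp1, S1pr1, Dll4, Ccr9 and Hsp90b1 are lower in CCR6+CD69+ libraries and Nr4a2, Tamalin and Itga4 higher; the Itga4 groups overlap across batches.

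On the list of recirculation and egress genes, the members that passed the test were lower in CCR6+CD69+ cells. S1pr1, the receptor that draws lymphocytes into lymph and blood, was at 68.2, 90.5, 105 and 117 CPM in CCR6+CD69+ cells, against 290.4, 265, 396 and 501 CPM in CCR6-CD69- cells, with no overlap. It fell in the 8-library fit (log2 fold change -1.91 ± 0.24, adjusted p = 0.000868, leave-one-out range 0.000188 to 0.0093) and had an adjusted p of 1.00 over 24 libraries. Foxp1, a transcription factor of resting lymphocytes, was at 103, 67.3, 182 and 138 CPM in CCR6+CD69+ libraries, against 224, 251, 489.8 and 356 CPM in CCR6-CD69- libraries (log2 fold change -1.44 ± 0.25, adjusted p = 0.00859, leave-one-out range 0.00434 to 0.0954). Of the 14 tested genes of this list, 8 had a negative and 6 a positive sign, and the median log2 fold change was -0.25. Without overlap 4 were lower and 1 higher, against 3.61% and 2.58% of all genes tested. The higher member was Tcf7, at 58.2 ± 31.1 CPM in CCR6+CD69+ libraries, against 14.4 ± 8.54 CPM in CCR6-CD69- libraries (log2 fold change 2.05 ± 0.58, adjusted p = 0.114 over 8 libraries). Summed, the list took between 0.261% and 0.409% of counts in CCR6+CD69+ and between 0.377% and 0.557% in CCR6-CD69- libraries.

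Selplg and Fcmr belong to no list and were chosen after their values were seen, because they passed in all 8 leave-one-out fits. Selplg, the P-selectin ligand PSGL-1, averaged 280.4 ± 70.3 CPM across CCR6+CD69+ libraries and 767 ± 171 CPM across CCR6-CD69- libraries (log2 fold change -1.47 ± 0.24, adjusted p = 0.0055, leave-one-out range 0.000886 to 0.0303). Fcmr, the Fc receptor for IgM, averaged 328 ± 98.9 CPM in CCR6+CD69+ cells, against 1092 ± 305 CPM in CCR6-CD69- cells (log2 fold change -1.72 ± 0.26, adjusted p = 0.00239, leave-one-out range 0.000303 to 0.0202). In the circulating WT libraries Selplg averaged 2214 ± 851 CPM and Fcmr 478 ± 232 CPM.

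Of 11 tested genes of tissue residency and retention, 6 had a positive sign, with a median log2 fold change of 0.24. Itga4 alone was called, in the 8-library fit. Rgs1, a regulator that dampens chemokine receptor signalling, was at 923, 908, 905 and 1051 CPM in CCR6+CD69+ libraries, against 636, 423, 436 and 622 CPM in CCR6-CD69- libraries. Its groups did not overlap, but it passed neither fit (log2 fold change 0.84 ± 0.21, adjusted p = 0.0706 over 8 libraries). Summed, the list took between 0.543% and 0.973% of counts in CCR6+CD69+ and between 0.359% and 0.588% in CCR6-CD69- libraries, and Itga4 was the largest contributor.

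Jchain had the smallest p of all genes in the 24-library fit. It encodes the chain that joins IgM and IgA into polymers and marks cells on the way to antibody secretion. It was at 169, 269, 76.0 and 245 CPM in CCR6+CD69+ libraries, against 3699, 288, 1675 and 4064 CPM in CCR6-CD69- libraries. CCR6-CD69- replicate 2 was only just above the highest CCR6+CD69+ library, and the other CCR6-CD69- libraries were far above it (log2 fold change -3.67 ± 0.62, adjusted p = 0.00275). The call was kept in 7 of 8 leave-one-out fits and was lost without CCR6+CD69+ replicate 1 (adjusted p = 0.0543, with a range over the 8 fits of 6.26e-06 to 0.0543).

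The other plasma cell genes had lower values in CCR6+CD69+ libraries without passing the test, for all but 1 member. Sdc1, which encodes the plasma cell surface proteoglycan CD138, was at 3.87, 4.63, 3.93 and 3.22 CPM across CCR6+CD69+ libraries and 14.9, 11.7, 34.3 and 204 CPM across CCR6-CD69- libraries, where replicate 4 stood far above the other 3 (log2 fold change -4.37 ± 1.75, adjusted p = 0.858). Of the 8 tested members 7 had a negative sign, with a list median of -1.39. In the 24-library fit 1 was called, against 0.295% of all genes tested. Without overlap 3 were lower, against 3.61% of all genes tested. Creld2, among these 3, is also on the unfolded protein response list below, so the lists are not separate. Their sum was between 0.0831% and 0.154% of counts in CCR6+CD69+ and between 0.123% and 0.772% in CCR6-CD69- libraries. Ighg3, an immunoglobulin heavy chain constant region, was at 47.7, 70.4, 23.8 and 36.1 CPM in CCR6+CD69+ cells, against 494, 133, 321 and 794 CPM in CCR6-CD69- cells (log2 fold change -3.30 ± 0.53, adjusted p = 0.00827 over 8 libraries, leave-one-out range 1.49e-05 to 0.168); constant region genes share sequence, so its reads may include those of other isotypes. As all samples were bulk, fewer antibody-secreting cells, less of these RNAs per cell and RNA from other cell types cannot be told apart. Markers of several other cell types also differed between the groups, as given below, and their part in these values was not tested.

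All 10 tested genes of the unfolded protein response and endoplasmic reticulum folding had a negative sign. Their median was -0.82, against -0.02 over all genes tested. Of these, 6 were lower without overlap between the groups, as were 3.61% of all genes tested. Hsp90b1, the chaperone GRP94, was at 1167, 827, 1433 and 1247 CPM in CCR6+CD69+ libraries, against 1857, 1679, 2439 and 4105 CPM in CCR6-CD69- libraries. It was the only member called, in the 8-library fit (log2 fold change -1.06 ± 0.23, adjusted p = 0.0322, leave-one-out range 0.0106 to 0.191). Hspa5, the chaperone BiP, was at 799, 632, 844 and 1027 CPM across CCR6+CD69+ libraries and 1125, 1361, 1495 and 1745 CPM across CCR6-CD69- libraries, with no overlap (adjusted p = 0.0682). Manf, a secreted stress factor, averaged 118 ± 36.2 CPM in CCR6+CD69+ cells, against 282 ± 98.2 CPM in CCR6-CD69- cells (adjusted p = 0.0705). Pdia6, a disulfide isomerase, averaged 311 ± 41.0 CPM in CCR6+CD69+ libraries, against 554 ± 125 CPM in CCR6-CD69- libraries (adjusted p = 0.0953). Adjusted p-values of this paragraph are those of the 8-library fit. The sum over the list ranged from 0.360% to 0.443% of counts in CCR6+CD69+ and from 0.550% to 1.07% in CCR6-CD69- libraries, so no library of either group lay within the other's range.

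The genes P4hb, Rrbp1, Surf4 and Wfs1 belong to no list and were chosen from the calls of the 8-library fit after their values were seen, so each is given for itself. P4hb, another disulfide isomerase, averaged 251 ± 43.5 CPM across CCR6+CD69+ libraries and 549 ± 126 CPM across CCR6-CD69- libraries (log2 fold change -1.12 ± 0.23, adjusted p = 0.0209, leave-one-out range 0.006 to 0.102). Rrbp1, which holds ribosomes on the endoplasmic reticulum, averaged 214 ± 22.0 and 465 ± 109.8 CPM in the same order (log2 fold change -1.10 ± 0.23, adjusted p = 0.0255, leave-one-out range 0.00434 to 0.165). Surf4, a cargo receptor of the secretory route, averaged 191 ± 55.0 CPM in CCR6+CD69+ cells, against 419.7 ± 72.4 CPM in CCR6-CD69- cells (log2 fold change -1.14 ± 0.26, adjusted p = 0.0443, leave-one-out range 0.0211 to 0.175). Wfs1, a membrane protein of the endoplasmic reticulum, averaged 12.1 ± 3.51 CPM in CCR6+CD69+ libraries, against 96.5 ± 30.2 CPM in CCR6-CD69- libraries (log2 fold change -2.97 ± 0.47, adjusted p = 0.00386, leave-one-out range 0.00169 to 0.0258).

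The chaperone promoters are shown for the members whose window holds the endoplasmic reticulum stress response element, searched as CCAAT, any 9 bases and CCACG on both strands and printed with its fixed letters in capitals (CGTGG and ATTGG where it reads from the other strand). The windows are again the 250 bases before the RefSeq start in GRCm38.p6, 5′ to 3′: Hsp90b1 at chr10:86705445-86705694 on the minus strand, Hspa5 at chr2:34771840-34772089, Pdia6 at chr12:17266339-17266588 and Creld2 at chr15:88819396-88819645, these 3 on the plus strand.
Hsp90b1: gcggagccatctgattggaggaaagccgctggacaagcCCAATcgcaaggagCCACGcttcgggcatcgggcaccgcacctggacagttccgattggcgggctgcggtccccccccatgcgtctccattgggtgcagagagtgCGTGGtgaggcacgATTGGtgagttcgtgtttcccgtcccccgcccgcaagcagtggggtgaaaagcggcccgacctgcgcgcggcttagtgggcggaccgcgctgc
Hspa5: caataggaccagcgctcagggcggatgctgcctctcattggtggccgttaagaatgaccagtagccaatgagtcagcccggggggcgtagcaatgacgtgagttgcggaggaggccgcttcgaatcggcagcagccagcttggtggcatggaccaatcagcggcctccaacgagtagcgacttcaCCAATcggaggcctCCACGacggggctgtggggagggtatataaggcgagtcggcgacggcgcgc
Pdia6: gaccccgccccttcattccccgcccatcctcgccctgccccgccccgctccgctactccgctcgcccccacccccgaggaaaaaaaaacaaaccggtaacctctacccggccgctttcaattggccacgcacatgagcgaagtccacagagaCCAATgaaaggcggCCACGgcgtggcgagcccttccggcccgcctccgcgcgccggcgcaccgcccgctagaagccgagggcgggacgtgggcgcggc
Creld2: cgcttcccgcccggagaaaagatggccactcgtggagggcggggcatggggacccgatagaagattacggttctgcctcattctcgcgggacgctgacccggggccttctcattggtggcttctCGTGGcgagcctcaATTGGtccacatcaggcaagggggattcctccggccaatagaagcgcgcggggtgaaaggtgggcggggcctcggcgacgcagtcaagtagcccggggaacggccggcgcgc
Of the 10 tested members 7 matched a window in the table, and 4 of these hold the element, which is found in 0.113% of the 32851 windows; Pdia3, Ssr4 and Sec61b hold no match and Manf, Hyou1 and Sec11c have no entry. Hsp90b1, the member that passed the test, holds 2 matches, the farther beginning 212 bases before the start. Creld2, a chaperone-like protein of the endoplasmic reticulum, was at 47.9, 29.7, 11.3 and 17.4 CPM across CCR6+CD69+ libraries and 76.6, 74.4, 115 and 161 CPM across CCR6-CD69- libraries, with no overlap and no call (adjusted p = 0.0722 over 8 libraries).

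Dll4 had a large fall among signalling genes. It encodes a ligand of Notch receptors, and Notch2 signalling in mouse B cells drives the marginal zone fate. Dll4 was at 3.87, 4.45, 0 and 0 CPM in CCR6+CD69+ cells, against 121, 49.6, 51.9 and 47.7 CPM in CCR6-CD69- cells. Among the CCR6+CD69+ libraries both of batch 2 had no Dll4 count (log2 fold change -5.85 ± 1.20, adjusted p = 0.0117 over 24 libraries and 0.00745 over 8, leave-one-out range in the smaller fit 0.000648 to 0.0335). Dtx1, an E3 ligase that Notch induces, was at 3.53, 13.9, 7.86 and 1.61 CPM in CCR6+CD69+ libraries, against 121, 107, 32.1 and 77.9 CPM in CCR6-CD69- libraries (log2 fold change -3.62 ± 0.66, adjusted p = 0.0104, leave-one-out range 0.00903 to 0.0664). Notch2 itself was at 136, 163, 409 and 427 CPM across CCR6+CD69+ libraries and 298, 318, 708 and 696 CPM across CCR6-CD69- libraries; the groups overlapped across batches and were apart within each (log2 fold change -0.90 ± 0.20, adjusted p = 0.0398, leave-one-out range 0.0263 to 0.175). Of 13 tested Notch genes 10 had a negative sign, with a median of -0.47, and no other member passed. Over all genes tested 0.295% were called lower over 24 libraries and 1.14% over 8.

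Further genes of the 20 are given singly, and whether they share a function or a cell type of origin was not tested. Cacna1e, the pore subunit of a voltage-gated calcium channel, was at 31.0, 57.8, 66.0 and 44.8 CPM in CCR6+CD69+ cells, against 483, 266, 434 and 407 CPM in CCR6-CD69- cells (log2 fold change -2.99 ± 0.60, adjusted p = 0.0117). Tex2, a lipid transfer protein of the endoplasmic reticulum, was at 10.0, 11.5, 16.5 and 10.6 CPM in CCR6+CD69+ libraries, against 209, 155, 95.3 and 104 CPM in CCR6-CD69- libraries (log2 fold change -3.46 ± 0.71, adjusted p = 0.0117). Both stood apart in every library.

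Sdc4, a heparan sulfate proteoglycan of cell adhesion, was at 31.7, 49.7, 30.4 and 45.8 CPM across CCR6+CD69+ libraries and 531, 283, 224 and 241 CPM across CCR6-CD69- libraries (log2 fold change -2.97 ± 0.65). Serinc5, a membrane protein that blocks retroviral entry, was at 3.42, 16.9, 12.3 and 6.77 CPM in CCR6+CD69+ cells, against 170.4, 23.5, 161 and 299 CPM in CCR6-CD69- cells, with CCR6-CD69- replicate 2 close to the CCR6+CD69+ range (log2 fold change -3.91 ± 0.85). Fmnl2, a formin that builds actin filaments, was at 1.03, 1.48, 0 and 1.93 CPM in CCR6+CD69+ libraries, against 6.44, 137, 69.6 and 49.1 CPM in CCR6-CD69- libraries, where replicate 1 was the lowest (log2 fold change -5.84 ± 1.32). Their adjusted p-values over 24 libraries were 0.0171 for Sdc4, 0.0171 for Serinc5 and 0.0229 for Fmnl2.

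Tbc1d8, a member of a family that switches off Rab GTPases, was at 9.00, 10.2, 0 and 0.322 CPM across CCR6+CD69+ libraries and 289, 180.1, 211 and 109 CPM across CCR6-CD69- libraries (log2 fold change -6.37 ± 1.22, adjusted p = 0.0178). Ccnd1, the G1 cyclin D1, was at 9.91, 20.2, 0.262 and 2.90 CPM in CCR6+CD69+ cells, against 267, 141, 66.9 and 47.3 CPM in CCR6-CD69- cells (log2 fold change -4.27 ± 0.96, adjusted p = 0.0221). No other of the 16 tested cell cycle genes passed either fit, and their median was -0.22. Lrp8, a receptor for reelin and apolipoprotein E, averaged 16.0 ± 1.63 CPM in CCR6+CD69+ libraries, against 168 ± 20.8 CPM in CCR6-CD69- libraries, and Tifa, an adaptor of NF-kB signalling, averaged 8.84 ± 6.11 and 126 ± 87.9 CPM in the same order.

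Several genes of the 8-library fit were close to 0 in CCR6+CD69+ cells. Lag3, an inhibitory receptor of activated lymphocytes, was at 2.05, 0.927, 0 and 0 CPM in CCR6+CD69+ libraries, against 127, 83.5, 27.8 and 44.0 CPM in CCR6-CD69- libraries (log2 fold change -6.85 ± 0.88, adjusted p = 0.000918, leave-one-out range 0.000188 to 0.00699). Gpm6b, a membrane glycoprotein, had 2 reads in all 4 CCR6+CD69+ libraries and 188 in the 4 CCR6-CD69- libraries (leave-one-out range 0.00925 to 0.0783). Pir, the nuclear protein pirin, had 6 reads in CCR6+CD69+ and 288 in CCR6-CD69- libraries, most of them in CCR6-CD69- replicate 1 at 80.98 CPM (leave-one-out range 0.0022 to 0.173). Gpsm2, which orients the mitotic spindle, had 12 reads in CCR6+CD69+ and 290 in CCR6-CD69- libraries, again led by replicate 1 at 82.0 CPM, and its call was kept in 1 of 8 leave-one-out fits (range 0.00483 to 0.215). Duxbl1, a homeobox gene with close copies in the genome and therefore an uncertain count, had 8 reads in CCR6+CD69+ and 196 in CCR6-CD69- libraries (leave-one-out range 0.0237 to 0.115). The largest falls over 8 libraries also took in Ccr9, Ptprf, Tbc1d8, Cox6a2 and Dntt.

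Genes that were called in all 8 leave-one-out fits of the 8 libraries, and that no list or size rule picked, included receptor phosphatases and enzymes. Ptprs averaged 26.3 ± 10.5 CPM across CCR6+CD69+ libraries and 218 ± 58.3 CPM across CCR6-CD69- libraries, and Ptprj, also a receptor tyrosine phosphatase, 82.1 ± 30.3 and 289 ± 99.5 CPM in the same order. Ephx1, an epoxide hydrolase, averaged 22.3 ± 9.21 CPM in CCR6+CD69+ cells, against 181 ± 48.1 CPM in CCR6-CD69- cells. Hsd11b1, which regenerates active glucocorticoid, averaged 3.62 ± 2.09 CPM in CCR6+CD69+ libraries, against 83.4 ± 70.9 CPM in CCR6-CD69- libraries. Mcoln2, a cation channel of endosomes, averaged 4.10 ± 1.56 CPM across CCR6+CD69+ libraries and 72.9 ± 41.6 CPM across CCR6-CD69- libraries. Rn18s-rs5, a ribosomal RNA-related row whose reads may come from many near-identical copies, averaged 1335 ± 1202 CPM in CCR6+CD69+ cells, against 3518 ± 2740.3 CPM in CCR6-CD69- cells.

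Genes of B cell identity, antigen presentation and survival did not pass either fit. Of 10 tested identity genes 7 had a negative sign (median -0.32); Cd72, an inhibitory co-receptor, was the 1 member without overlap, at 356 ± 124 CPM in CCR6+CD69+ libraries, against 719 ± 280.0 CPM in CCR6-CD69- libraries (adjusted p = 0.059 over 8 libraries). Ms4a1, which encodes CD20, averaged 1303 ± 97.4 CPM across CCR6+CD69+ libraries and 995 ± 224 CPM across CCR6-CD69- libraries. Of 7 tested genes on the MHC class II presentation list 5 had a positive sign (median 0.16). These 7 include H2-T23, a class I gene, which had a negative sign (log2 fold change -0.17). The list took between 2.91% and 5.14% of counts in CCR6+CD69+ and between 2.80% and 4.52% in CCR6-CD69- libraries. The 17 genes of NF-kB and survival had a median of -0.05, with 7 positive and 10 negative signs. Of 16 memory and germinal centre genes Fas, the death receptor, and Pdcd1lg2, which encodes the memory B cell marker PD-L2, did not overlap. Of all genes tested 2.58% were higher without overlap. Fas was at 117, 107, 68.9 and 56.1 CPM in CCR6+CD69+ cells, against 12.2, 22.2, 15.5 and 34.2 CPM in CCR6-CD69- cells (adjusted p = 0.0706 over 8 libraries). Pdcd1lg2 was at 126, 247, 293 and 235 CPM in CCR6+CD69+ libraries, against 115, 70.5, 119.9 and 93.6 CPM in CCR6-CD69- libraries (adjusted p = 0.0953). Zeb2, a transcription factor made in age-associated B cells, was at 67.7, 41.9, 147 and 73.8 CPM across CCR6+CD69+ libraries and 80.98, 420.2, 279 and 311 CPM across CCR6-CD69- libraries, and the ranges overlapped (adjusted p = 0.0682).

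Among 15 tested chemokines and receptors 13 had a negative sign (median -1.35) and 4 were lower without overlap, against 3.61% of all genes tested. Ccr9 is also on the plasmacytoid dendritic cell marker list and Ccr2 on the macrophage and monocyte marker list. Ccl4, an inflammatory chemokine, was at 12.6, 23.7, 4.98 and 11.6 CPM in CCR6+CD69+ cells, against 349, 145, 29.4 and 26.2 CPM in CCR6-CD69- cells (log2 fold change -2.74 ± 0.66, adjusted p = 0.0392 over 24 libraries, with a leave-one-out range of 0.0427 to 0.399 there and of 0.0075 to 0.122 over 8). Its CCR6-CD69- level was far higher in batch 1 than in batch 2. Ccr9, the receptor for the gut and thymus chemokine CCL25, was at 5.81, 20.8, 0 and 0 CPM in CCR6+CD69+ libraries, against 373, 325, 243 and 118 CPM in CCR6-CD69- libraries (log2 fold change -6.23 ± 1.09, adjusted p = 0.0394 over 8 libraries, leave-one-out range 0.0013 to 0.176). Ccr2, the receptor for CCL2, was at 2.28, 14.1, 4.45 and 7.09 CPM across CCR6+CD69+ libraries and 42.4, 47.0, 47.1 and 22.6 CPM across CCR6-CD69- libraries, with no overlap and no call (adjusted p = 0.196). Of 14 interleukins and receptors 12 had a negative sign (median -0.44), and Lifr, the receptor for leukemia inhibitory factor, was the 1 called. It was at 3.19, 10.8, 5.24 and 0 CPM in CCR6+CD69+ cells, against 76.6, 60.0, 149 and 88.1 CPM in CCR6-CD69- cells (log2 fold change -4.42 ± 1.05, adjusted p = 0.0392 over 24 libraries, with a leave-one-out range of 0.0355 to 0.267 there and of 0.00491 to 0.121 over 8).

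Sterol and fatty acid genes, which SCAP controls by escorting SREBP transcription factors, are of interest because the study deletes SCAP. Of 12 tested genes of cholesterol synthesis 8 had a negative sign (median -0.37), and Fdps, which makes farnesyl pyrophosphate, was called in the 8-library fit. Fdps was at 18.9, 55.6, 11.0 and 26.8 CPM in CCR6+CD69+ libraries, against 331, 102, 80.8 and 51.3 CPM in CCR6-CD69- libraries. The ranges overlapped, as CCR6+CD69+ replicate 2 was above CCR6-CD69- replicate 4 (log2 fold change -2.18 ± 0.50, adjusted p = 0.0482, leave-one-out range 0.0093 to 0.19). Of 10 genes of sterol uptake and SREBP control 8 had a negative sign (median -0.63) and none was called. Insig1, which holds SCAP in the endoplasmic reticulum, was at 68.6, 129, 87.2 and 198 CPM across CCR6+CD69+ libraries and 380.2, 209, 262 and 300.3 CPM across CCR6-CD69- libraries (adjusted p = 0.0849 over 8 libraries). Its groups did not overlap, and the summed list took between 0.0763% and 0.128% of counts in CCR6+CD69+ and between 0.154% and 0.207% in CCR6-CD69- libraries.

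Of 11 genes of fatty acid synthesis and desaturation 6 had a negative sign (median -0.01). Fads2, the delta-6 desaturase, was at 2.05, 4.26, 0 and 2.90 CPM in CCR6+CD69+ libraries, against 74.9, 50.9, 63.7 and 26.9 CPM in CCR6-CD69- libraries (log2 fold change -4.62 ± 0.95, adjusted p = 0.0234 over 8 libraries, leave-one-out range 0.0102 to 0.15). Scd2, a stearoyl-CoA desaturase, was at 95.8, 106, 138 and 157 CPM across CCR6+CD69+ libraries and 313, 180.1, 232 and 313 CPM across CCR6-CD69- libraries, with no overlap and no call (adjusted p = 0.0702). Among the targets of the sterol sensor LXR, Pltp, which moves phospholipids between lipoproteins, was at 7.75, 12.8, 10.7 and 8.70 CPM in CCR6+CD69+ cells, against 262, 256, 94.7 and 103 CPM in CCR6-CD69- cells (log2 fold change -3.81 ± 0.91, adjusted p = 0.0392 over 24 libraries). Abca1, the cholesterol efflux pump, averaged 654 ± 256 CPM in CCR6+CD69+ libraries, against 504 ± 92.8 CPM in CCR6-CD69- libraries (log2 fold change 0.31 ± 0.54, adjusted p = 1.00). None of the 9 glycolysis genes or the 11 genes of fatty acid oxidation passed, with medians of -0.02 and 0.02.

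**Figure D3:**
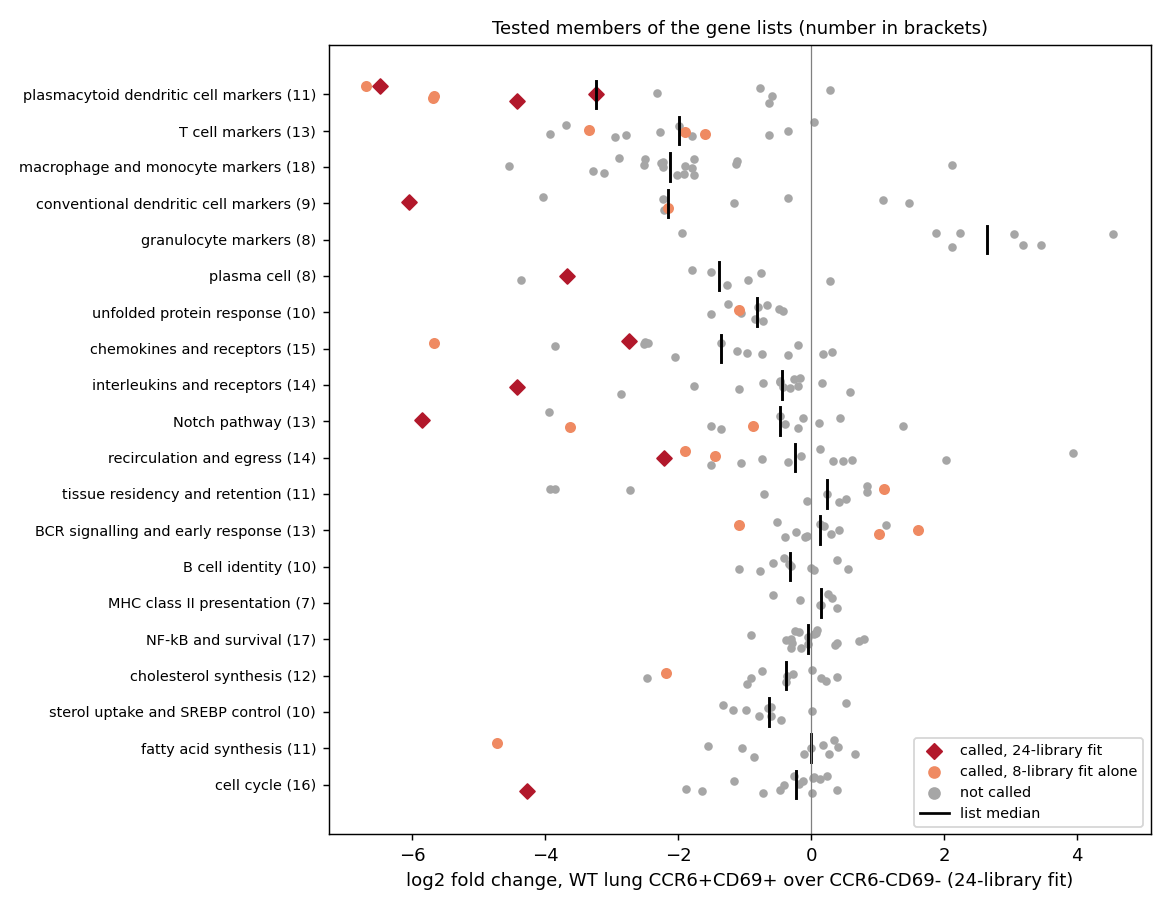
Log2 fold changes (CCR6+CD69+ over CCR6-CD69-, 24-library fit) of the tested members of 20 gene lists, 1 point per gene, with called genes in red (24-library fit) and orange (8-library fit alone) and a black bar at each list median. The medians of the plasmacytoid dendritic cell, T cell, macrophage and conventional dendritic cell marker lists lie between -3.23 and -1.98, the granulocyte list at 2.64, and those of the B cell identity, MHC class II and NF-kB lists between -0.32 and 0.16.

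Markers of other cell types were lower in CCR6+CD69+ libraries for several lineages, and these values stand beside every result above. Of 11 tested plasmacytoid dendritic cell markers 10 had a negative sign, with a median of -3.23. Over 24 libraries 3 were called (Atp1b1, Ptprf and Lifr) and over 8 libraries 6 (with Dntt, Cox6a2 and Ccr9). Of all genes tested 0.295% were called lower over 24 libraries and 1.14% over 8. Atp1b1, a sodium pump subunit, was at 23.9, 17.2, 17.5 and 28.7 CPM across CCR6+CD69+ libraries and 279, 163, 178 and 203 CPM across CCR6-CD69- libraries (log2 fold change -3.23 ± 0.66, adjusted p = 0.0117). Ptprf, a receptor tyrosine phosphatase, was at 1.37, 2.22, 0 and 0 CPM in CCR6+CD69+ cells, against 51.8, 10.4, 114 and 71.3 CPM in CCR6-CD69- cells (log2 fold change -6.48 ± 1.37, adjusted p = 0.017 over 24 libraries, with a leave-one-out range of 0.00948 to 0.126 there and of 0.000705 to 0.113 over 8). Both were apart in every library. Dntt, the terminal transferase of lymphoid precursors, was at 1.37, 3.34, 0 and 0 CPM in CCR6+CD69+ libraries, against 62.0, 43.1, 43.4 and 36.4 CPM in CCR6-CD69- libraries (adjusted p = 0.0153 over 8 libraries, leave-one-out range 0.00417 to 0.0783). Cox6a2, a respiratory subunit, was at 1.14, 2.22, 0 and 0 CPM across CCR6+CD69+ libraries and 90.8, 87.4, 3.75 and 7.64 CPM across CCR6-CD69- libraries (adjusted p = 0.00479, leave-one-out range 0.0083 to 0.0399). Tcf4, the factor that defines plasmacytoid dendritic cells and is also made by B cells, averaged 1062 ± 279.6 CPM in CCR6+CD69+ cells, against 870.1 ± 258 CPM in CCR6-CD69- cells. The summed list took between 0.263% and 0.309% of counts in CCR6+CD69+ and between 0.415% and 0.434% in CCR6-CD69- libraries. Tcf4, Irf8, Pld4 and Spib had the largest means of the 11 tested members, and Spib is also on the B cell identity list. Group means, CCR6+CD69+ first, were 708 and 1086 CPM for Irf8, 451 and 663 CPM for Pld4, and 360 and 605 CPM for Spib. The sum is therefore not a measure of plasmacytoid dendritic cells alone. Siglech and Bst2 are not analysed here, and the part of plasmacytoid dendritic cells in the results was not tested.

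Of 13 T cell markers 12 had a negative sign (median -1.98), and Cd4, Lck and Ctla4 were called in the 8-library fit. That fit tested 7 of the markers, and it called 1.14% of all genes tested lower. Cd4 was at 2.62, 7.97, 24.6 and 7.41 CPM in CCR6+CD69+ libraries, against 67.8, 75.7, 145 and 134 CPM in CCR6-CD69- libraries (log2 fold change -3.44 ± 0.54, adjusted p = 0.00334, leave-one-out range 0.00169 to 0.0296). Lck, a kinase of T cell receptor signalling, was kept in 2 of 8 leave-one-out fits (range 0.0083 to 0.139) and Ctla4, an inhibitory receptor, in 4 of 8 (range 0.00331 to 0.106). The receptor chains that define T cells were near the counting limit: Cd3e averaged 0.374 ± 0.630 CPM across CCR6+CD69+ libraries and 4.67 ± 5.35 CPM across CCR6-CD69- libraries, and Trac 0.551 ± 0.496 and 6.56 ± 6.18 CPM in the same order. The summed list took between 0.0117% and 0.0168% of counts in CCR6+CD69+ and between 0.0404% and 0.0873% in CCR6-CD69- libraries.

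Of 18 tested macrophage and monocyte markers 17 had a negative sign (median -2.12) and none was called; Marco, Lyz1 and Cidec had no count in any of the 8 libraries. Their sum lay between 0.0547% and 0.374% of counts in CCR6+CD69+ and between 0.113% and 3.90% in CCR6-CD69- libraries. Chil3, a chitinase-like protein of alveolar macrophages, was at 241, 260.4, 2339.6 and 546 CPM in CCR6+CD69+ cells, against 510.0, 25379, 2958 and 975 CPM in CCR6-CD69- cells, with replicate 2, the shallowest, far above the rest (adjusted p = 1.00 over 24 libraries). Without CCR6-CD69- replicate 2 the 24-library fit called 20 genes, 17 of them shared with the fit that keeps it, and the 8-library fit 141. The other CCR6-CD69- libraries also held counts of these markers, so the part of macrophage RNA was not tested by leaving it out. Conventional dendritic cell markers had a median of -2.15 over the 9 tested in the 24-library fit and of -0.75 over the 6 tested in the 8-library fit. Clec10a, a lectin, was at 2.16, 2.41, 0 and 0 CPM in CCR6+CD69+ libraries, against 109, 24.8, 35.9 and 0.728 CPM in CCR6-CD69- libraries (log2 fold change -6.04 ± 1.45, adjusted p = 0.0392), and replicate 4 of CCR6-CD69- lay within the CCR6+CD69+ range; its call was kept in 2 of 8 leave-one-out fits of the 24 libraries (range 0.0343 to 0.338). Sirpa, an inhibitory receptor of myeloid cells, was the member called over 8 libraries (log2 fold change -2.42 ± 0.50, adjusted p = 0.0255, leave-one-out range 0.00375 to 0.184). The list's sum was between 0.0573% and 0.136% of counts in CCR6+CD69+ and between 0.129% and 0.156% in CCR6-CD69- libraries.

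Of 13 tested NK cell markers 10 had a negative sign and 3 a positive one, with a median of -0.24, and the 3 tested in the 8-library fit had a median of 1.54. Tyrobp, an adaptor of NK and myeloid receptors, was the 1 called, at 20.4, 39.5, 22.8 and 6.77 CPM across CCR6+CD69+ libraries and 389.7, 582, 77.6 and 40.4 CPM across CCR6-CD69- libraries (log2 fold change -2.98 ± 0.68, adjusted p = 0.0251 over 24 libraries, with a leave-one-out range of 0.0273 to 0.271 there and of 0.000685 to 0.0805 over 8). Sh2d1b1, an adaptor of SLAM family receptors, was higher without overlap, at 46.4, 35.0, 34.1 and 32.9 CPM in CCR6+CD69+ libraries, against 27.1, 0, 2.14 and 20.4 CPM in CCR6-CD69- libraries, and was not called (adjusted p = 0.625 over 8 libraries). The list took between 0.00560% and 0.00929% of counts in CCR6+CD69+ and between 0.00959% and 0.0657% in CCR6-CD69- libraries. Granulocyte markers ran the other way: 7 of 8 had a positive sign (median 2.64), none was called, and their sum was between 0.0112% and 0.0259% of counts in CCR6+CD69+ and between 0.00218% and 0.0209% in CCR6-CD69- libraries. S100a9, a calcium-binding protein of neutrophils, was at 47.9, 131, 53.2 and 11.3 CPM in CCR6+CD69+ cells, against 21.3, 24.8, 1.07 and 3.28 CPM in CCR6-CD69- cells (adjusted p = 0.0918 over 8 libraries). Ltf, Ngp and Epx had no count in any of the 8. Ribosomal protein genes took between 12.4% and 13.5% of counts in the CCR6+CD69+ libraries of batch 1 and between 3.37% and 3.47% in those of batch 2, against 8.33% to 11.6% and 2.68% to 2.79% in the CCR6-CD69- libraries of the same batches. The part of other cell types in the differences above was not tested.

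The same pair of populations from SCAP cKO mice shares no library with the WT pair, although both were fitted together. In SCAP cKO mice 31 genes passed, all lower in CCR6+CD69+ cells (0.457% of 6779). All 20 genes called in WT were lower in SCAP cKO CCR6+CD69+ libraries as well, 15 of them past the threshold there and 12 without overlap, against 0.723% of all genes without overlap in the lower direction in SCAP cKO. The median log2 fold change of the 20 was -4.50 in SCAP cKO and -3.74 in WT, where it chose them. Of the 72 genes called lower in the 8 WT libraries, 68 had a negative sign in SCAP cKO and 24 passed there. All 9 risers had a positive sign in SCAP cKO and none passed. The median over all genes tested was 0.256 in SCAP cKO, against -0.02 in WT, so a positive sign was the more common one there. Nr4a2 was the 1 riser without overlap in SCAP cKO, against 3.76% of all genes without overlap in the higher direction. The SCAP cKO count was 29 without CCR6-CD69- replicate 4, a library of 129025 counts, and between 12 and 15 without each CCR6+CD69+ replicate in turn.

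The difference between the genotypes was tested as a contrast of contrasts, and 0 of 6779 genes passed in edgeR, while DESeq2 called 6. In edgeR 235 genes had an unadjusted p under 0.05, fewer than the share of 0.05 that chance alone gives. Of the 20 genes called in WT, Ccl4 alone had an unadjusted p under 0.05 for this difference (0.0280; log2 fold change -4.76 ± 0.72 in SCAP cKO and -2.74 ± 0.66 in WT). Jchain averaged 120.5 ± 29.2 CPM in CCR6+CD69+ libraries, against 712 ± 519 CPM in CCR6-CD69- libraries of SCAP cKO mice (log2 fold change -2.55 ± 0.59, adjusted p = 0.0268). For Nr4a2 the SCAP cKO libraries averaged 486 ± 184 CPM in CCR6+CD69+ cells, against 99.96 ± 110.2 CPM in CCR6-CD69- cells (log2 fold change 2.16 ± 0.66, adjusted p = 0.185). For S1pr1 they averaged 146 ± 54.0 CPM in CCR6+CD69+ libraries, against 197 ± 175 CPM in CCR6-CD69- libraries (log2 fold change -0.32 ± 0.79, adjusted p = 0.932; unadjusted p of the difference from WT 0.163). A p that misses the threshold does not show that the genotypes are alike.

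**Figure D4:**
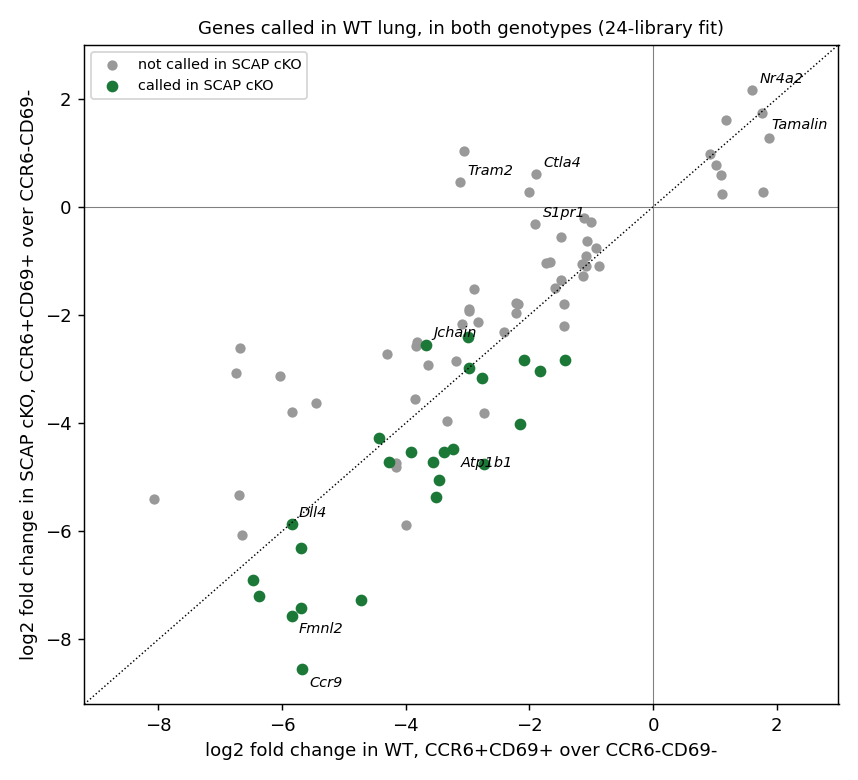
Log2 fold changes (CCR6+CD69+ over CCR6-CD69-, 24-library fit) in WT on the x axis and in SCAP cKO on the y axis, for the 83 genes called in WT by either fit, with the 25 called in SCAP cKO in green and a dotted line of equality. Of the 83 genes, 79 have the same sign in both genotypes; Ctla4 and Tram2 are among the 4 that do not.

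Circulating memory B cells of the WT mice, from 4 further libraries, give a further level for the same genes. For 19 of the 20 called genes their mean was above that of CCR6-CD69- cells, and for all 20 above that of CCR6+CD69+ cells. Dll4 averaged 2.08 ± 2.41 CPM for lung CCR6+CD69+, 67.5 ± 35.7 CPM for lung CCR6-CD69- and 254 ± 345 CPM for circulating libraries (SD, n = 4 each). Jchain averaged 190.0 ± 87.1 CPM for lung CCR6+CD69+, 2432 ± 1774 CPM for lung CCR6-CD69- and 1544 ± 646 CPM for circulating libraries. Nr4a2 did not follow a gradient, with means of 671 ± 113 CPM for lung CCR6+CD69+, 224 ± 117 CPM for lung CCR6-CD69- and 803 ± 267 CPM for circulating libraries. Of the 72 genes called lower over 8 libraries, the circulating mean was above the CCR6-CD69- mean for 46, between the lung means for 25 and below the CCR6+CD69+ mean for 1. These means share the lung libraries with the comparison above and are given as levels only.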

How the data were processed

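The authors deposited raw counts per gene symbol, 18470 rows with 1 column for each of 24 libraries. Salmon, STAR, FastQC and build mm39 are named in the submitters' processing notes; which tool made the counts is not given in the sources used here. Some rows are not analysed here. The test was the robust quasi-likelihood F-test of edgeR 4.0.16 (R 4.3.3), after TMM scaling and filterByExpr by group, with group and batch over all 24 libraries, and Benjamini-Hochberg adjustment at 0.05 over all genes tested. A fit of the 8 WT lung libraries alone stands beside it. CPM are counts scaled to 1000000 on TMM-scaled library sizes of the 24-library fit. Alternatives used DESeq2 1.42.0, limma 3.58.1 (voom) and other filters, scalings, thinned counts and libraries left out; scripts were tested on simulated data. Replicates of a group differed beyond sampling noise (chi-square per degree of freedom at least 16.7), so none was a repeat deposit.

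Named were Cd69, Scap, 18 of the 20 called genes (the others are not reported here), the 9 rises and the 10 largest falls of the 8-library fit with a group mean of at least 5 CPM, and members of the 31 gene lists (303 tested) with small p; others are marked as chosen after their values were seen. The groups compared, the lists and the members were chosen with earlier results of these data known.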

Additional observations from a re-analysis of the deposited data

Results flagged for a closer look

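In a group of 4 libraries, a library was taken as standing apart when its gap to the nearest other as a share of the group's range exceeded Dixon's critical value; chance alone gives about 1 group in 20. Of 172 groups, 12 had such a library, 3 of them in CCR6-CD69- replicate 1. That library held 121 CPM of Dll4, against 47.7 to 51.9 CPM in the other CCR6-CD69- libraries, 82.0 CPM of Gpsm2, against 8.03 to 11.7 CPM, and 80.98 CPM of Pir, against 6.55 to 12.8 CPM. Chil3 was at 25379 CPM in CCR6-CD69- replicate 2, against 510 to 2958 CPM in the others of its group, and Sdc1 at 204 CPM in CCR6-CD69- replicate 4, against 11.7 to 34.3 CPM.

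Among CCR6+CD69+ libraries, replicate 3 held 2340 CPM of Chil3, against 241 to 546 CPM in the others, and 1.31 CPM of Cd3e, against 0 to 0.185 CPM. Replicate 2 held 72.3 CPM of Ctla4, against 39.0 to 40.6 CPM, and 0.371 CPM of Gpm6b, against 0. Replicate 1 was low for Fcmr, at 182 CPM, against 363 to 397 CPM, and high for Sh2d1b1, at 46.4 CPM, against 32.9 to 35.0 CPM. Replicate 4 held 1051 CPM of Rgs1, against 905 to 923 CPM.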

How the results depend on the processing

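All 20 genes called over 24 libraries and all 81 called over 8 kept their direction under every alternative that gave them a value. Instead of 20 genes, 54 passed with DESeq2 (3 higher), 155 with limma voom (26 higher), 38 with no filter on low counts (2 higher), 6 without the batch term, 6 in batch 1 alone, 2 in batch 2 alone, 81 in the 8-library fit and 1 with a minimum log2 fold change of 1; leaving out 1 WT lung library gave 0 to 20. The cause of these shifts was not tested. Same-numbered libraries of the WT lung groups correlated at 0.0463 and 0.0196 about their group and batch means, so the numbers were not taken to pair them; a replicate block gave 13 genes over 24 libraries and 77 over 8. Instead of 81 (9 higher and 72 lower), the 8-library fit gave 266 with DESeq2 (66 higher), 130 with limma voom (34 higher), 283 with no filter (60 higher), 104 with thinned counts (22 higher) and 35 without the batch term (1 higher), and 36 to 144 with 1 library left out, of which 2 to 48 higher, the most without CCR6-CD69- replicate 1. For SCAP cKO, instead of 31, RLE factors gave 55, DESeq2 342 (69 higher), no filter 84 (4 higher), no batch term 13, batch 1 alone 8, batch 2 alone 8 (3 higher), its own 8 libraries 8, a replicate block 20 over 24 libraries and 3 over its own, and leaving out 1 library 12 to 38. The genotype difference had 6 genes with DESeq2 and 3 with no filter, and 0 with each library left out. The difference in mean total counts lay between 1865910 and 3799410 without each library in turn, and that in genes detected between 200.2 and 499.5. Low-count genes are limited by CCR6-CD69- replicate 2, where 3 counts are 4.41 CPM.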
